A study of Mus musculus with 20 samples.

Results

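The genes described here are 5 genes of peripheral myelin and of Schwann cells, Pmp22, Pmp2, Egr2, Prx and Cldn19, followed array by array through mouse spinal cord. They were chosen by name, with earlier results of these data known. A gene was measured where a probe set carried its symbol alone, which held for 4 of the 5 among 22180 genes in all. Pmp22 was read by probe set 17250839, Pmp2 by 17404077 and Egr2 by 17233993, and for Cldn19 the probe set with the higher mean of the 2 listed, 17417898, was used. No probe set with the single symbol Prx was found, so Prx, which encodes periaxin, was not analysed here.

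The study measured total RNA from whole spinal cord with Affymetrix whole-transcript arrays, 1 array per mouse and 5 mice per group. All mice were C57BL/6J and 6 to 10 weeks old. Control mice and Cx30GRko mice, which lack the glucocorticoid receptor in cells where Cre recombinase acts under connexin 30, an astrocyte gap junction protein, received saline or dexamethasone (Dex, a synthetic receptor agonist, 4 mg/kg into the peritoneum), and tissue was taken 4 h later. The 4 groups are called control saline, control Dex, Cx30GRko saline and Cx30GRko Dex, with arrays titled wt read as control and those titled Tg as Cx30GRko. The alleles that the control mice carried and the exact Cre construct are not given in the sources used here.

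Schwann cells wrap the axons of peripheral nerves and spinal roots, whereas oligodendrocytes myelinate the axons inside the cord, so the compact myelin of the periphery has its own protein set. PMP22 is a membrane protein of compact peripheral myelin whose gene dosage underlies inherited neuropathies, and PMP2 is a fatty acid binding protein of the same sheath. EGR2 (Krox20) is the zinc finger transcription factor that drives Schwann cells into myelination, periaxin links the sheath to the basal lamina, and claudin 19 forms tight junctions within the noncompact myelin of Schwann cells. A spinal cord is attached to its roots and covered by meninges, and dissection may leave variable amounts of either.

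The upstream sequences of 3 of these genes are shown because Egr2, itself a regulator of Schwann cell genes, is 1 of the 4 measured genes, and because the 4 genes went up and down together in part of the arrays. Each window holds the 250 bases before a start site in RefSeq (GRCm38.p6, plus strand), in lower case, with any match to the EGR motif GTGGGCG, on either strand, in capitals. The first belongs to Cldn19 (chr4:119255191-119255440), the second to Egr2 (chr10:67535249-67535498) and the third to Pmp22 (chr11:63128732-63128981).
Cldn19: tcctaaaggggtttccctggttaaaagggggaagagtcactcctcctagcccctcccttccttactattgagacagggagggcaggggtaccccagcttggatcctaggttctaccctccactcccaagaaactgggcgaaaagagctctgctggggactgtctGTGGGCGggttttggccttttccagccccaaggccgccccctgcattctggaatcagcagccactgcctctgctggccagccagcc
Egr2: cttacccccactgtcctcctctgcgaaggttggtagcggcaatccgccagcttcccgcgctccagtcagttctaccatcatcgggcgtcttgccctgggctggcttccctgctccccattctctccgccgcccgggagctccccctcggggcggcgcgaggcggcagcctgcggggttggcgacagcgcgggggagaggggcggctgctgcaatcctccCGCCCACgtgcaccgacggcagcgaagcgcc
Pmp22: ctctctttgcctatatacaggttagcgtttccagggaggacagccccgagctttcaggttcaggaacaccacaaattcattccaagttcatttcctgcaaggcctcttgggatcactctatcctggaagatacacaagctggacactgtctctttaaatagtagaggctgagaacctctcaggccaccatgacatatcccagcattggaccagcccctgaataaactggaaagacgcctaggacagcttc

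RefSeq listed 12 such windows for the 5 genes, 4 for Pmp22, 5 for Egr2, 1 for Prx, 2 overlapping ones for Cldn19 and none for Pmp2. GTGGGCG or its reverse complement was found in both Cldn19 windows and in 1 of the 5 Egr2 windows. It was found in 7.02% of all 32851 windows (2307 windows). No window of the 5 genes held the full glucocorticoid response element (its inverted repeat of AGAACA), which occurred in 0.0365% of all windows (12 windows), AGAACA alone, which occurred in 16.1%, or the SOX motif AACAAT, which occurred in 9.42%, on either strand. These are matches of letters within 250 bases and describe nothing beyond those windows.

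Values are log2 signals as deposited, and 1 unit is a doubling of signal. The deposited values had been centred within 2 sets of arrays that the labels do not mention: 12 arrays hold replicates 1 to 3 and 8 arrays hold replicates 4 and 5. Values within each set stand beside the pooled ones. Replicates 4 and 5 of Cx30GRko Dex stood apart, since the SD over all probe sets was 1.95 and 1.81 there and 1.66 to 1.71 on the other 6 arrays of the set. Markers of the cord itself were present on all arrays, with a mean log2 signal of the 12 measured central myelin and oligodendrocyte markers between 7.14 and 8.53. Nr3c1, the glucocorticoid receptor gene, differed between genotypes by -0.02 ± 0.26 (SE, log2) under saline and 0.37 ± 0.26 under Dex (limma, adjusted p = 0.995 and 0.6), so whole-cord RNA gives no check of the deletion. Under Dex, Nr3c1 was at 7.79 in Cx30GRko replicate 4 and at 6.08 to 6.62 on the other 4 arrays, and in replicates 1 to 3 the means were 6.18 in Cx30GRko and 6.22 in control arrays. Gjb6, the connexin 30 gene, differed by 0.14 ± 0.18 and 0.01 ± 0.18 (limma, adjusted p = 0.94 and 0.99).

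Pmp22 had log2 signals of 7.52, 8.39, 8.75, 8.30 and 8.22 in control saline replicates 1 to 5. They were 8.15, 7.30, 6.36, 7.07 and 7.68 in control Dex, and 8.08, 7.87, 7.16, 7.15 and 6.87 in Cx30GRko saline. In Cx30GRko Dex they were 6.97, 7.92, 8.56, 9.68 and 7.05. In control saline 4 of 5 arrays were above 8, and the Cx30GRko Dex group held both the highest Pmp22 value of the study, in replicate 4, an array that stood apart, and values near the lowest of the other groups. The group means were 8.23 ± 0.45 (SD, n = 5) in control saline, 8.04 ± 1.13 in Cx30GRko Dex, 7.43 ± 0.52 in Cx30GRko saline and 7.31 ± 0.67 in control Dex.

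Pmp2 had the widest spread of the 4 genes. Its log2 signals were 3.83, 5.96, 7.34, 4.49 and 5.01 in control saline and 5.55, 3.53, 3.33, 4.72 and 4.57 in control Dex, from replicate 1 to 5. In Cx30GRko mice they were 5.42, 4.56, 2.61, 4.25 and 4.84 under saline and 2.80, 4.71, 5.30, 4.49 and 4.25 under Dex. Control saline replicates 2 and 3 were the 2 highest arrays, and each of the other groups held an array at 3.33 or lower, all of them among replicates 1 to 3. The control mean was 5.33 ± 1.37 (SD, n = 5) under saline and 4.34 ± 0.91 under Dex, and the Cx30GRko mean was 4.34 ± 1.06 and 4.31 ± 0.93.

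Egr2, the transcription factor, had log2 signals of 5.91, 6.91, 6.94, 7.22 and 7.30 in control saline and 7.06, 5.84, 5.25, 6.66 and 5.70 in control Dex. In Cx30GRko mice they were 6.34, 5.70, 5.49, 6.60 and 5.33 under saline and 5.54, 6.99, 7.46, 5.74 and 5.74 under Dex. In control saline 4 of 5 arrays lay between 6.91 and 7.30 and replicate 1 lay below them at 5.91, whereas the highest Egr2 array of all was Cx30GRko Dex replicate 3. The means were 6.86 ± 0.55 (SD, n = 5), 6.10 ± 0.74, 5.89 ± 0.55 and 6.29 ± 0.87 in the same order.

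Cldn19, the tight junction gene, had log2 signals of 5.53, 6.71, 7.15, 5.89 and 5.43 in control saline and 5.95, 4.98, 5.12, 5.67 and 6.90 in control Dex. In Cx30GRko mice they were 5.79, 5.51, 4.87, 5.05 and 5.26 under saline and 4.59, 5.78, 6.81, 6.21 and 5.45 under Dex. Cx30GRko saline was the narrowest group, with no array above 5.79, and each of the other 3 groups had at least 1 array at 6.81 or higher. The means were 6.14 ± 0.76 (SD, n = 5), 5.72 ± 0.77, 5.29 ± 0.37 and 5.77 ± 0.83 in the same order.

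**Figure D1:**
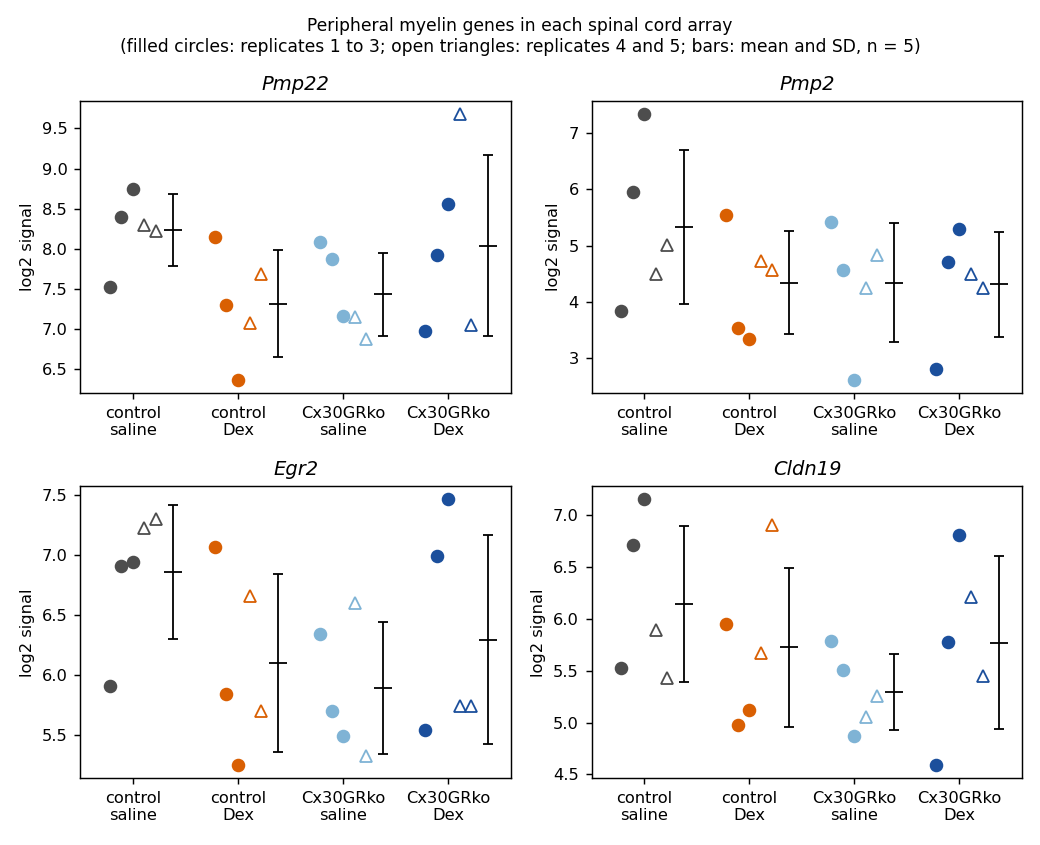
The log2 signal of Pmp22, Pmp2, Egr2 and Cldn19 on each of the 20 arrays by group, with filled circles for replicates 1 to 3, open triangles for replicates 4 and 5 and bars for the group mean and SD (n = 5). Control saline has the highest mean for each of the 4 genes, and every group overlaps the others.

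Control saline had the highest mean for all 4 genes, but no neighbouring group means in that order differed by more than the gene's residual SD (the spread of arrays around their group means), which was 0.74 for Pmp22, 1.08 for Pmp2, 0.69 for Egr2 and 0.71 for Cldn19. The largest gap between neighbouring means was 0.98, between control saline and the next group for Pmp2. The residual SD describes single arrays, whereas the SE of a difference between 2 group means was 0.39 to 0.60. The lowest mean differed from control saline by -0.93 for Pmp22, -0.96 for Egr2 and -0.85 for Cldn19, more than the residual SD. For Pmp2 the means ran from 5.33 to 4.31. None of the 4 genes passed the tests given below. The order below control saline differed between genes: Cx30GRko Dex came second for Pmp22, Egr2 and Cldn19 and last for Pmp2. The means of Pmp2 in control Dex, Cx30GRko saline and Cx30GRko Dex lay within 0.02 of their neighbours.

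These genes varied between arrays far more than a typical gene. From the lowest to the highest array Pmp22 spanned 3.32 log2 units (9.97-fold), Pmp2 4.73, Egr2 2.21 (4.63-fold) and Cldn19 2.56 (5.92-fold), against 1.35 (2.55-fold) for the median gene. The mean log2 signal of Pmp2, 4.58, was below that of the median gene, 4.68. Whether its lowest arrays were above background was not tested, so no fold is given for it. The residual SD of the median gene was 0.32, below that of each of the 4 genes. Among the 22180 genes, 285 had a larger residual SD than Pmp22, 15 than Pmp2, 425 than Egr2 and 372 than Cldn19.

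The spread lay mostly within groups. Differences between the 4 group means made up 26% of the variance of Pmp22, 16.6% for Pmp2, 25.1% for Egr2 and 18.4% for Cldn19, against 17.8% for the median gene. For comparison, they made up 45.4% of the variance of Fkbp5, a classical target of the glucocorticoid receptor.

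The spread also differed between the array sets. In replicates 1 to 3 the residual SD was 0.72 for Pmp22, 1.45 for Pmp2, 0.77 for Egr2 and 0.78 for Cldn19, against 0.21 for the median gene, and 78, 1, 52 and 50 genes had larger ones. In replicates 4 and 5 it was 0.96, 0.30, 0.56 and 0.54, against 0.37 for the median gene. Pmp2, second of all genes in spread among replicates 1 to 3, was thus below the median gene in replicates 4 and 5. The difference in spread between the sets was not tested.

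The first comparison asked what Dex did in control mice. All 4 genes had lower means in control Dex than in control saline arrays, by -0.93 ± 0.41 (SE, log2) for Pmp22, -0.98 ± 0.60 for Pmp2, -0.75 ± 0.39 for Egr2 and -0.42 ± 0.40 for Cldn19. None passed the test (limma, Benjamini-Hochberg over 22180 genes, threshold 0.05, adjusted p = 0.94, 0.942, 0.942 and 0.969), where 0.0135% of all genes did (3 genes). At an unadjusted p under 0.05 limma took in 1 of the 4, Pmp22, and 5.16% of all genes. In none of the 4 did the groups separate without overlap, as they did in 1.24% of all genes. The median over the 4 genes was -0.84, against 0.01 over all genes. The 4 genes went up and down together over arrays, as described below. Their like signs, here and in the comparisons that follow, are thus not 4 separate observations.

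Within the array sets the Pmp22 difference was -0.95 (replicates 1 to 3) and -0.89 (replicates 4 and 5). All 5 control Dex arrays lay below the control saline mean of their own set. Pmp2 differed by -1.57 and -0.10, and Egr2 by -0.54 and -1.07. Cldn19 turned from -1.11 to 0.63 between the sets, with control Dex replicate 5 at 6.90. The Pmp2 difference rested on control saline replicate 3 (7.34): it was -0.48 without that array and -1.36 without control saline replicate 1 (3.83). Cldn19 stood at -0.16 without control saline replicate 3.

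In Cx30GRko mice the Dex difference was 0.61 ± 0.41 (SE, log2) for Pmp22, -0.02 ± 0.60 for Pmp2, 0.40 ± 0.39 for Egr2 and 0.48 ± 0.40 for Cldn19. None passed the test (limma, adjusted p = 0.612, 0.993, 0.741 and 0.687), where 0.018% of all genes did (4 genes), and none had an unadjusted p under 0.05, where 9.73% of all genes did. Their groups overlapped in all 4 genes, and 1.53% of all genes had groups without overlap. Within replicates 1 to 3 the differences were 0.11, 0.08, 0.82 and 0.34, and within replicates 4 and 5 they were 1.35, -0.18, -0.23 and 0.68, in the order Pmp22, Pmp2, Egr2 and Cldn19. Without Cx30GRko Dex replicate 4, the array with the highest Pmp22, the Pmp22 difference was 0.20. Without Cx30GRko Dex replicate 3 those of Egr2 and Cldn19 were 0.11 and 0.22, and normalising the arrays again by quantiles put Pmp2 at 0.01.

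The difference between these 2 Dex effects, Cx30GRko minus control, was positive for each of the 4 genes on the probe sets used. It was 1.54 ± 0.59 (SE, log2) for Pmp22, 0.96 ± 0.84 for Pmp2, 1.15 ± 0.55 for Egr2 and 0.89 ± 0.56 for Cldn19 (limma, adjusted p = 0.846, 0.876, 0.846 and 0.855). Across all genes limma called 0, which is 0%, at the adjusted threshold and 1253 at an unadjusted p under 0.05, or 5.65%. Pmp22 and Egr2 were among those under 0.05 without adjustment. The second Cldn19 probe set, described below, had the opposite sign, at -0.38 ± 0.38 (limma, adjusted p = 0.891). Within replicates 1 to 3 the interaction was 1.06, 1.65, 1.36 and 1.45 in the same order, and within replicates 4 and 5 it was 2.24, -0.07, 0.85 and 0.06. Without Cx30GRko Dex replicates 4 and 5, which stood apart, it was 1.32, 0.92, 1.52 and 0.85. That of Pmp2 was 0.46 without control saline replicate 3 and 0.53 without Cx30GRko saline replicate 3.

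Under saline, the comparison of genotypes gave lower means in Cx30GRko than in control arrays for all 4 genes. The differences were -0.81 ± 0.41 (SE, log2) for Pmp22, -0.99 ± 0.60 for Pmp2, -0.96 ± 0.39 for Egr2 and -0.85 ± 0.40 for Cldn19, with an adjusted p of 0.914 for each (limma). No gene of the 22180 was called, which is 0%, and 1165 genes (5.25%) had an unadjusted p under 0.05, Egr2 and Cldn19 among them. The groups of all 4 genes overlapped, and 0.938% of all genes had groups without overlap. Every difference was negative in both array sets, from -0.52 to -1.51 in replicates 1 to 3 and from -0.20 to -1.29 in replicates 4 and 5. For Pmp2 the difference was -0.49 without control saline replicate 3 and -0.56 without Cx30GRko saline replicate 3.

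The genotype comparison under saline shares its control saline arrays with the Dex comparison in control mice, so their like signs are not independent. The difference between the Dex effects, given above, also includes those arrays, so its positive sign is no separate result. Pmp22 stood at -0.93 for Dex in control mice and at -0.81 for genotype under saline, Pmp2 at -0.98 and -0.99, Egr2 at -0.75 and -0.96, and Cldn19 at -0.42 and -0.85. Under Dex the genotype difference was 0.73 ± 0.41 (SE, log2) for Pmp22, -0.03 ± 0.60 for Pmp2, 0.19 ± 0.39 for Egr2 and 0.05 ± 0.40 for Cldn19 (limma, adjusted p = 0.507, 0.992, 0.889 and 0.978). Without Cx30GRko Dex replicate 4 that of Pmp22 was 0.32, and without Cx30GRko Dex replicate 3 those of Egr2 and Cldn19 were -0.10 and -0.21. Normalising by quantiles put that of Pmp2 at 0.02. Here too limma called 0 genes, 0%, and 2481 genes, or 11.2%, had an unadjusted p under 0.05, none of them among the 4. Groups without overlap were found in 1.28% of all genes and in none of the 4.

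Averaged over both genotypes, the Dex difference was -0.16 ± 0.29 (SE, log2) for Pmp22, -0.50 ± 0.42 for Pmp2, -0.18 ± 0.27 for Egr2 and 0.03 ± 0.28 for Cldn19. None of the 4 was called, where limma called 0.149% of all genes (33 genes), and none had an unadjusted p under 0.05, where 8.64% did. The 95% confidence intervals were -0.77 to 0.45, -1.38 to 0.37, -0.74 to 0.39 and -0.55 to 0.61, each of which holds values of either sign.

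**Figure D2:**
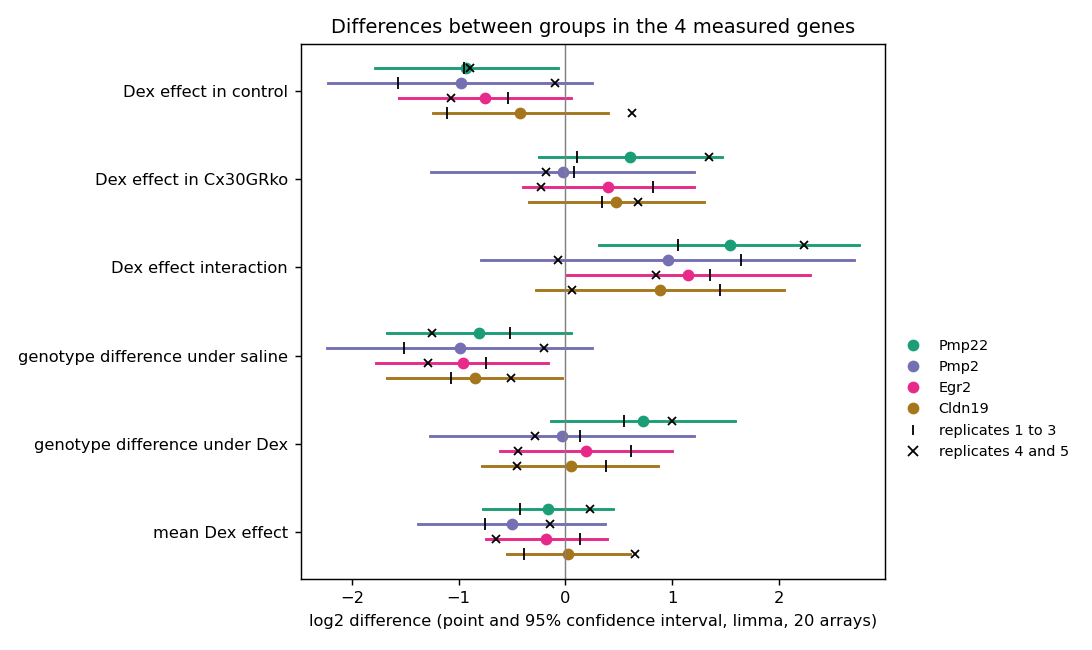
The 6 differences between groups for Pmp22, Pmp2, Egr2 and Cldn19 on the log2 scale, as points with 95% confidence intervals (limma, 20 arrays), with vertical ticks for replicates 1 to 3 and crosses for replicates 4 and 5. The Dex effect in control mice and the genotype difference under saline lie below 0 for all 4 genes on the probe sets used. Cldn19 crosses to 0.63 for the former in replicates 4 and 5.

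Cldn19 had a second probe set, 17429352, which did not follow the first. Over the 20 arrays the 2 probe sets had a Pearson r of -0.05 (permutation p = 0.826) and a Spearman rho of 0.10 (permutation p = 0.677). Without the 2 farthest arrays r was -0.14. Replicates 1 to 3 alone gave 0.31, and replicates 4 and 5 gave -0.35. In Cx30GRko mice the second probe set differed by -0.54 ± 0.27 (SE, log2) between Dex and saline and under saline it differed by 0.33 ± 0.27 between genotypes (limma, adjusted p = 0.521 and 0.916), signs opposite to those of the first. With Dex in control mice it differed by -0.16 ± 0.27 (limma, adjusted p = 0.991), the sign of the first. Its difference between the Dex effects was -0.38 ± 0.38, against 0.89 for the first (limma, adjusted p = 0.891). Its genotype difference under Dex was -0.05 ± 0.27 and its mean Dex effect -0.35 ± 0.19 (limma, adjusted p = 0.963 and 0.615). The first had 0.05 and 0.03 there, also of the opposite sign. Which of the 2 reads Cldn19 transcripts of Schwann cells was not tested.

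The 4 measured genes went up and down together over arrays. Over all 20 arrays Pearson's r for the 6 pairs ran from 0.50 (Egr2 with Cldn19, permutation p = 0.0265, also 0.0265 after Benjamini-Hochberg adjustment over the 6 pairs) to 0.79 (Pmp2 with Cldn19, permutation p = 4e-05, adjusted 0.00024). Spearman's rho ran from 0.52 (Egr2 with Cldn19, permutation p = 0.0194) to 0.76 (Pmp22 with Cldn19, permutation p = 0.00019). Without the 2 arrays farthest from the median of the first gene, r ran from 0.49 to 0.76. With each array's group mean taken off, 4 of the 6 pairs had an adjusted permutation p under 0.05, and Pmp22 with Egr2 had r = 0.42 (adjusted permutation p = 0.0749) and Egr2 with Cldn19 r = 0.38 (adjusted permutation p = 0.102).

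The array sets gave different values. In replicates 1 to 3 (12 arrays) r ran from 0.80 for Pmp2 with Egr2 to 0.93 for Pmp2 with Cldn19, with rho from 0.79 to 0.95 and the highest adjusted permutation p at 0.00266 for r and 0.0037 for rho. In replicates 4 and 5 the same pairs had r from -0.24 for Egr2 with Cldn19 to 0.47 for Pmp22 with Cldn19 (8 arrays, exact permutation test, adjusted p = 0.974 for each). The difference between the sets was not itself tested, and with 8 arrays a moderate correlation cannot be told from none.

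**Figure D3:**
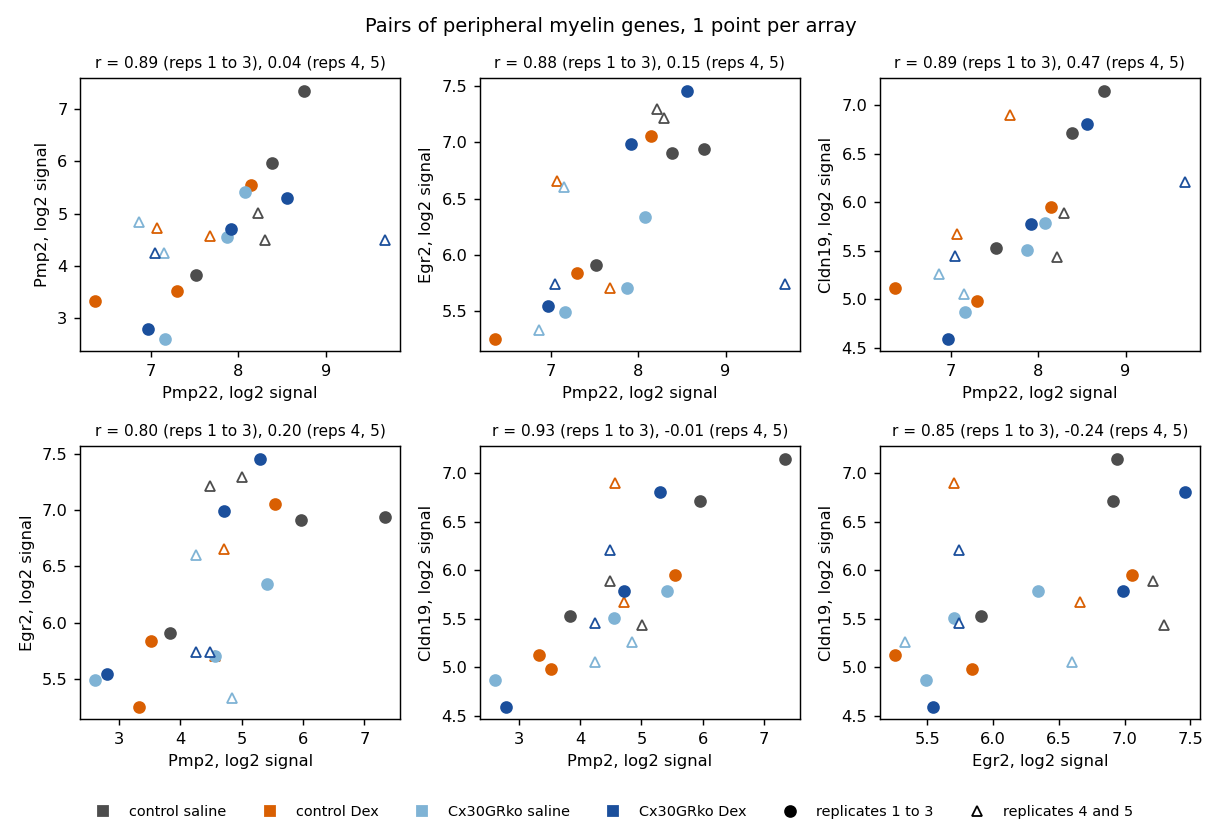
The 6 pairs among Pmp22, Pmp2, Egr2 and Cldn19, with 1 point per array on log2 signal axes, coloured by group, circles for replicates 1 to 3 and triangles for replicates 4 and 5. Circles follow a line in each panel (r from 0.80 to 0.93), and triangles do not (r from -0.24 to 0.47).

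The arrays that carried the relation came from different groups. Control saline replicate 3 ranked first of the 12 arrays of its set for Pmp22, Pmp2 and Cldn19 and at rank 4 for Egr2, with a mean deviation from the 20-array means of 1.46 over the 4 genes. Cx30GRko Dex replicate 3 followed at 0.95 and control saline replicate 2 at 0.90. At the other end stood Cx30GRko Dex replicate 1 at -1.11, control Dex replicate 3 at -1.07 and Cx30GRko saline replicate 3 at -1.05. Each of the 4 groups thus had arrays on both sides of the mean within replicates 1 to 3, and the Cx30GRko Dex group held both the second highest and the lowest array of the set.

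In replicates 4 and 5 single arrays were high for 1 gene and low for another. Cx30GRko Dex replicate 4 was at 1.93 for Pmp22 and at -0.55 for Egr2. Control Dex replicate 5 was at 1.17 for Cldn19 and at -0.58 for Egr2. Both control saline arrays were above the mean for Egr2, at 0.93 and 1.01, and for Pmp22, at 0.55 and 0.46.

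**Figure D4:**
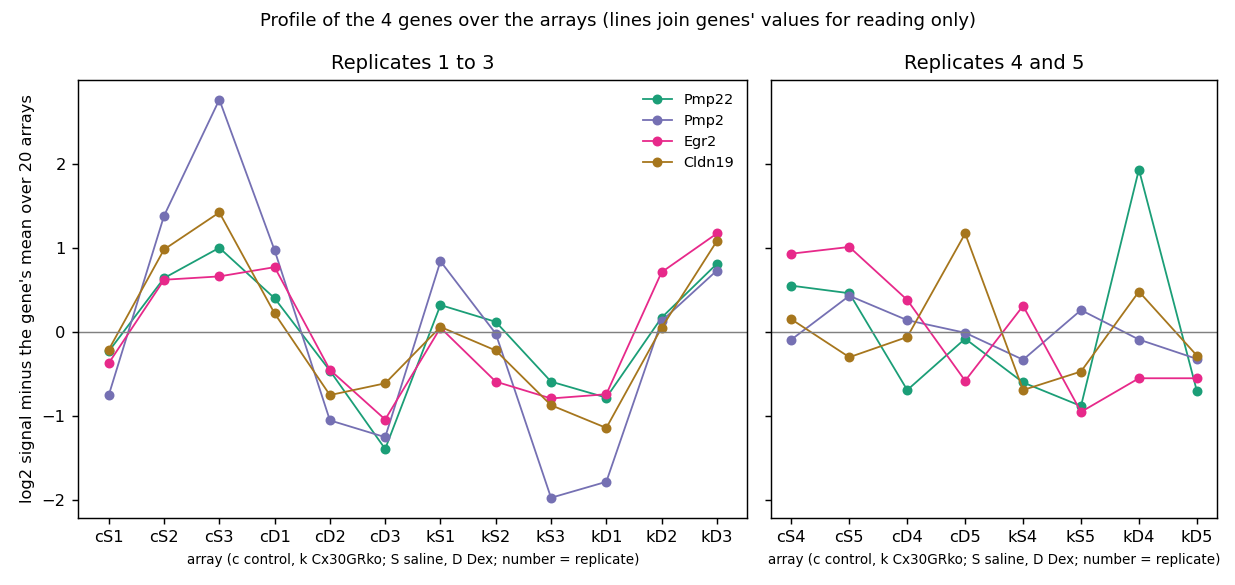
The deviation of Pmp22, Pmp2, Egr2 and Cldn19 from each gene's mean over 20 arrays, in log2 units, for the 12 arrays of replicates 1 to 3 and the 8 of replicates 4 and 5. The 4 lines move together in the left panel, highest at control saline replicate 3 (mean deviation 1.46), and cross each other in the right panel.

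Other Schwann cell genes stood beside these. Of 12 listed genes, 10 were measured, among them Drp2 (a dystrophin-related protein that binds periaxin), Ncmap (a protein of noncompact myelin), Gldn (gliomedin, which clusters channels at nodes), Scn7a (a sodium channel family member found in nonmyelinating Schwann cells) and Dhh (the desert hedgehog ligand secreted by Schwann cells). With Dex in control mice 9 of the 10 were lower and 1, Foxd3, higher, with a median of -0.41 (0.01 over all genes), -0.69 in replicates 1 to 3 and 0.14 in replicates 4 and 5. None was called. Plekha4 differed by -0.77 ± 0.34 (SE, log2), Dhh by -0.66 ± 0.35, Scn7a by -1.21 ± 0.65, Gldn by -0.78 ± 0.45, Drp2 by -0.49 ± 0.38 and Ncmap by -0.32 ± 0.29 (limma, adjusted p from 0.939 to 0.969).

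In Cx30GRko mice 8 of the 10 were higher under Dex, with a median of 0.46 (0.22 and 0.56 in the array sets), and none was called. Without Cx30GRko Dex replicates 4 and 5 the median was 0.27. In the same comparison 12 of 12 astrocyte markers were higher, with a median of 0.40 (0.17 without those arrays), and 10 of 12 central myelin and oligodendrocyte markers, with a median of 0.21 (0.02 without them), and none was called. Under saline 9 of the 10 were lower in Cx30GRko than in control arrays, with a median of -0.40 (-0.54 and -0.23 in the array sets), and none was called. After quantile normalisation, 11 of 12 astrocyte markers were higher with Dex in Cx30GRko mice (median 0.27). Of the central myelin and oligodendrocyte markers 6 of 12 were higher then (median 0.00). The counts of the 10 Schwann cell genes were the same after that normalisation. Pooled over its 10 genes, the mean log2 signal ran from 5.12 to 6.28 in control saline, from 4.40 to 5.47 in control Dex, from 4.73 to 5.45 in Cx30GRko saline and from 4.65 to 6.10 in Cx30GRko Dex, so the groups overlapped.

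Array by array, the mean of these 10 genes followed the measured members. Over 20 arrays Pearson's r was 0.87 with Pmp22, 0.81 with Pmp2, 0.55 with Egr2 and 0.86 with Cldn19 (permutation test, p adjusted over 52 relations of 4 genes with 13 lists 0.00026, 0.00039, 0.0384 and 0.00026), and rho was 0.83, 0.79, 0.60 and 0.89. Without the 2 farthest arrays r was 0.82, 0.72, 0.52 and 0.88. In replicates 1 to 3 r was 0.96, 0.92, 0.87 and 0.94, and in replicates 4 and 5 it was 0.86, 0.05, -0.17 and 0.59, none with an adjusted exact permutation p under 0.05. Against the mean of the standardised members, the 10 genes had a median r of 0.90 within replicates 1 to 3, from 0.49 for Foxd3 to 0.97 for Drp2, where the median of all other genes was -0.04. The 16 meningeal fibroblast markers described next had a median r of 0.84 there, from 0.41 to 0.93. Over 20 arrays the median was 0.77 for the 10 genes and 0.67 for those markers.

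Markers of meningeal fibroblasts, the connective tissue cells of the cord's coverings, moved with the same arrays. All 16 listed were measured, and their mean log2 signal ran from 5.28 to 6.04 in control saline, from 4.64 to 5.65 in control Dex, from 4.74 to 5.60 in Cx30GRko saline and from 4.65 to 6.24 in Cx30GRko Dex. It had an r of 0.84 with Pmp22, 0.82 with Pmp2, 0.70 with Egr2 and 0.75 with Cldn19 over 20 arrays (permutation test, adjusted p = 0.000347, 0.000416, 0.0027 and 0.000924), with rho of 0.89, 0.74, 0.71 and 0.68 and, without the 2 farthest arrays, r of 0.85, 0.79, 0.63 and 0.87. Within replicates 1 to 3 r was 0.95, 0.87, 0.90 and 0.91, and within replicates 4 and 5 it was 0.90, 0.20, 0.20 and 0.13. In the latter set the value for Pmp22 had an adjusted exact permutation p of 0.258 and a rho of 0.57. Without the 2 farthest arrays its r was 0.70. With Dex in control mice 14 of the 16 were lower, with a median of -0.35 (-0.56 in replicates 1 to 3 and -0.09 in replicates 4 and 5). Under saline 12 of the 16 were lower in Cx30GRko than in control arrays (median -0.35), and 12 were higher with Dex in Cx30GRko mice (median 0.22). The difference between the Dex effects was positive for 14 (median 0.61). None was called in any of these comparisons. Between Dex and saline in control mice, Ogn (osteoglycin), a matrix proteoglycan, differed by -2.29 ± 0.81 (SE, log2) and Dcn (decorin) by -1.34 ± 0.56 (limma, adjusted p = 0.776 and 0.901).

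The part of nerve root or meningeal tissue left on the cord in these differences was not tested. In RNA of whole tissue, fewer cells of a type and less RNA per cell cannot be told apart. Endothelial markers (10 measured) had an r of 0.74 with Pmp22 (permutation test, adjusted p = 0.000924, rho 0.56) and of 0.08 with Egr2 (adjusted p = 0.885), and without the 2 farthest arrays the value for Pmp22 was 0.48. Within replicates 1 to 3 their r was 0.81 with Pmp22, 0.75 with Pmp2, 0.53 with Egr2 and 0.70 with Cldn19 (permutation test, adjusted p = 0.00542, 0.0173, 0.173 and 0.0347), and within replicates 4 and 5 it was 0.69, -0.36, -0.39 and 0.18. Slc4a1, the only erythrocyte gene measured of 8, had an r of 0.58 with Egr2 (permutation test, adjusted p = 0.0205, rho 0.56, without the 2 farthest arrays 0.65). Its log2 signal ran from 2.82 to 4.10, below the mean of the median gene, 4.68. Whether it was above background was not tested.

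Of the lists of neurons, other glia, muscle and fat, none had an adjusted p under 0.05 with any of the 4 genes over 20 arrays. Those of shared regulators and of structural relatives, given below, did. The central myelin and oligodendrocyte markers had r from -0.39 with Egr2 to 0.27 with Pmp22 (permutation test, lowest adjusted p = 0.18), and Mbp, a myelin basic protein gene that both kinds of myelin express, had r from -0.18 to 0.11 (lowest adjusted permutation p over 24 relations 0.581). Sensory ganglion neuron markers (11 of 13 measured) had r from -0.40 with Egr2 to 0.21 with Cldn19. Motor neuron markers had r of -0.48 with both Pmp22 and Egr2 (permutation test, adjusted p = 0.0842 for each), astrocyte markers from -0.15 to 0.31 and skeletal muscle markers from -0.02 to 0.32, and adipocyte markers reached -0.50 with Pmp22 (permutation test, adjusted p = 0.0781, -0.28 without the 2 farthest arrays).

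**Figure D5:**
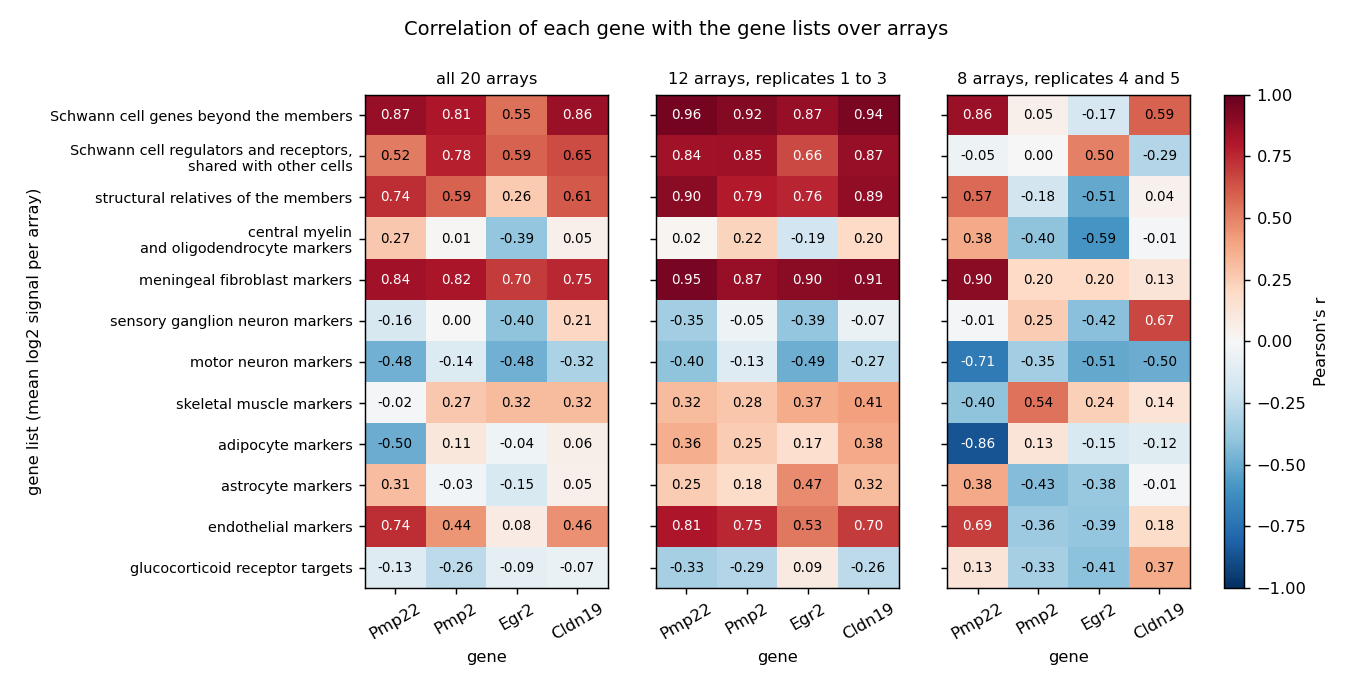
Pearson's r between each of Pmp22, Pmp2, Egr2 and Cldn19 (columns) and the mean log2 signal of each of 12 gene lists (rows), over all 20 arrays, the 12 of replicates 1 to 3 and the 8 of replicates 4 and 5. The Schwann cell and meningeal fibroblast rows are high in the first panels (0.55 to 0.87 and 0.70 to 0.84 over 20 arrays). In the last panel only Pmp22 has values of 0.86 and 0.90 there, neither with an adjusted exact permutation p under 0.05. The rows of shared regulators and of structural relatives reach 0.78 and 0.74 over 20 arrays.

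Egr2 is also an immediate early gene in neurons, so its relatives were looked at, after their values had been seen. Egr1 had an r of 0.19 with Egr2 and Egr3 one of 0.41 (permutation test, adjusted p = 0.581 and 0.142, rho 0.12 and 0.28). Within replicates 1 to 3 these were 0.28 and 0.38 (permutation test, adjusted p = 0.496 and 0.345). Within replicates 4 and 5 they were 0.08 and 0.48 (exact permutation test, adjusted p = 0.92 and 0.826). Drp2 and Ncmap had r of 0.33 and 0.32 with Egr2 over 20 arrays (adjusted permutation p = 0.301 for each). Within replicates 1 to 3 they had 0.89 and 0.84 (adjusted permutation p = 0.00036 and 0.00131). Within replicates 4 and 5 they had -0.32 and -0.30 (exact permutation test, adjusted p = 0.87 for each). With Pmp22 the values for Drp2 were 0.87 over 20 arrays and 0.95 within replicates 1 to 3 (permutation test, adjusted p = 0.00012 for each). In replicates 4 and 5 the r of Pmp22 with Drp2 was 0.80, and without the 2 farthest arrays it was -0.30. Cx30GRko Dex replicate 4 held the highest value of both genes there, 9.68 for Pmp22 and 8.24 for Drp2.

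Regulators and receptors that Schwann cells share with other cells (17 of 18 measured) had a median of -0.26 with Dex in control mice, with 15 lower and 2 higher and none called. Wwtr1, which encodes the Hippo pathway coactivator TAZ, differed by -0.79 ± 0.22 (SE, log2), -0.33 in replicates 1 to 3 and -1.49 in replicates 4 and 5 (limma, adjusted p = 0.517). Structural relatives of the members (17 measured) had a median of -0.09. Emp1, a membrane protein of the PMP22 family, differed by -0.80 ± 0.20, with -0.72 and -0.91 in the array sets (limma, adjusted p = 0.374). Over 20 arrays the mean of the relatives had r of 0.74 with Pmp22, 0.59 with Pmp2, 0.26 with Egr2 and 0.61 with Cldn19. The adjusted permutation p was 0.000924, 0.0219, 0.414 and 0.0166, and for rho the lowest was 0.101. Its r was 0.76 to 0.90 within replicates 1 to 3 and -0.51 to 0.57 within replicates 4 and 5. With the mean of the standardised members, the 17 regulators and receptors had a median r of 0.21 over 20 arrays, from -0.17 for Nrg1 to 0.77 for Lama2, a laminin chain of the Schwann cell basal lamina. Within replicates 1 to 3 the median was 0.49, from -0.44 for Nrg1 to 0.95 for Lama2. The mean of the regulators and receptors had r of 0.52 with Pmp22, 0.78 with Pmp2, 0.59 with Egr2 and 0.65 with Cldn19 over 20 arrays. The adjusted permutation p was 0.0546, 0.000433, 0.0166 and 0.00808. Its r was 0.66 to 0.87 within replicates 1 to 3 and -0.29 to 0.50 within replicates 4 and 5.

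The genes most alike in pattern over the 20 arrays, given as a description, were partly of the lists above. For Pmp22 they were Ogn (r = 0.95), Dcn (0.92), Scn7a (0.90), Drp2 (0.87) and Thbd (thrombomodulin, 0.85). For Pmp2 they were Arhgap19 (0.91), Cldn1 (claudin 1, 0.91), Il16 (0.90), Hspg2 (perlecan, a basement membrane proteoglycan, 0.88) and P2ry2 (0.86). For Egr2 the values were lower: Arhgap10 (0.78), Prrg3 (0.77), Col3a1 (a fibrillar collagen, 0.77), Slc2a12 (0.76) and Kntc1 (0.76). For Cldn19 they were Mfap5 (a microfibril protein, 0.93), Atp13a5 (0.87), Abca9 (0.87), Slc13a4 (a meningeal sulfate transporter, 0.87) and Il16 (0.87). With the mean of the standardised members, Arhgap19 reached 0.93, Il16, Mfap5 and Cldn1 0.91 each and Hspg2 0.89, and 105 genes (0.473%) had an r of at least 0.7, against 9 at -0.7 or below.

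The response to Dex itself was seen on the same arrays. All 16 listed targets of the glucocorticoid receptor had higher means under Dex in both genotypes, and 3 were called in each. Over all genes limma called 0.0135% (3 genes) in control mice and 0.018% (4 genes) in Cx30GRko mice. The list had been chosen with earlier results of these data known, so its counts and ranges are a description and no independent test. The mean log2 signal of the list ran from 6.03 to 6.18 in control saline and from 6.65 to 7.10 in control Dex, and from 5.90 to 6.18 in Cx30GRko saline and from 6.86 to 7.15 in Cx30GRko Dex, so saline and Dex arrays did not overlap on it. The r of that list with the 4 genes over arrays ran from -0.26 with Pmp2 to -0.07 with Cldn19 (permutation test, lowest adjusted p = 0.416).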

How the data were processed

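RNA from 20 spinal cords was hybridised to Affymetrix whole-transcript arrays. The deposited table holds log2 values of 41345 probe sets, made by the authors with oligo per the submitters' processing notes. No version, normalization method, genome build or probe annotation is stated in the sources used here. Every array had a mean of 4.64. For each probe set the means of replicates 1 to 3 and of replicates 4 and 5 differed by at most 4.5e-09, against a median of 0.10 for a split of the first set, so the values had been centred within these 2 sets. The model had no term for the sets, and values were also computed within each.

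For each of 22180 genes the probe set with the highest mean among those with its single symbol was used, with no filter on dim probe sets. Group means were fitted to all 20 arrays in limma 3.58.1 (R 4.3.3; lmFit and eBayes, 16 residual and 5.66 prior degrees of freedom, no block), with two-sided p-values, Benjamini-Hochberg adjustment across every gene and a threshold of 0.05. The fit was tested on simulated data. Group labels came from the array titles. The labels' design text gives separate mice as replicates, and the number of arrays limits the precision. Same-numbered arrays did not deviate together, so no pairing by number was seen. The values had been centred within the array sets, so this check cannot exclude pairing.

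Correlations used two-sided permutation tests (100000 resamples, exact for 8 arrays), and list values are means of log2 signals. The members, the 13 lists and the alternatives were chosen with earlier results of these data known. Genes named are the members, up to 4 genes of a list with the smallest p for Dex in control mice, Drp2 and Ncmap, the 5 most alike genes, Nr3c1 and Gjb6. Others (Foxd3, Lama2, Nrg1, Egr1, Egr3, Mbp, Fkbp5, Slc4a1) were named after their values were seen.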

Additional observations from a re-analysis of the deposited data

Results flagged for a closer look

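Egr2 in control saline replicate 1 was far from the other 4 arrays of its group: its log2 signal was 5.91, the others lay between 6.91 and 7.30, and the gap to the nearest was 0.718 of the group's range, above the 95% critical value of 0.71 for 5 samples. It was the only one of 16 gene and group combinations past that value, where chance flags about 1 in 20. Pmp22, Pmp2 and Cldn19 on the same array were at 7.52, 3.83 and 5.53, the lowest of control saline for Pmp22 and Pmp2.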

How the results depend on the processing

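Of 706 values of the 4 genes under alternatives, 668 had the sign of the reported value, 38 were reversed and none passed the test. The lowest adjusted p was 0.297 (limma). Many of the 668 could not differ. The blocks, the changes in which genes or groups were fitted, and leaving out an array outside the comparison return the same difference in this balanced design. The count of 668 is therefore no measure of how stable the signs are. Genes called for Dex in control mice (3) numbered 0 at a threshold of 0.01, with the replicate block, with only the groups compared and in replicates 4 and 5, 7 without Cx30GRko Dex replicates 4 and 5, 38 in replicates 1 to 3 and 58 with array weights. For Dex in Cx30GRko mice (4) they numbered 0 at 0.01, with the replicate block, in replicates 4 and 5 and without the arrays that stood apart, 1 with only the groups compared, 2 with an array set block or quantile normalisation, 7 in replicates 1 to 3 and 18 with array weights. For the mean Dex effect (33) they numbered 13 at 0.01, 15 with the replicate block, 129 with array weights, 101 in replicates 1 to 3 and 0 in replicates 4 and 5. The cause was not tested. The replicate block called none of the 4 genes, and 0 of 30 same-numbered pairs had a correlation of deviations over 0.1 (-0.31 to 0.04), with the own number highest in 1 of 30.

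Reversed values in replicates 4 and 5 were 0.63 for Cldn19 (Dex in control mice), -0.23 for Egr2 (Dex in Cx30GRko mice), -0.07 for Pmp2 (interaction), -0.44 for Egr2 and -0.45 for Cldn19 (genotype under Dex) and 0.23 for Pmp22 (mean Dex effect). In replicates 1 to 3 they were 0.08 and 0.14 for Pmp2 (Dex in Cx30GRko mice, genotype under Dex), and 0.14 for Egr2 and -0.39 for Cldn19 (mean Dex effect). Quantile normalisation gave 0.01 and 0.02 for Pmp2 (Dex in Cx30GRko mice, genotype under Dex). Array weights gave 0.17 for Pmp2 (genotype under Dex), and 0.09 for Egr2 and -0.21 for Cldn19 (mean Dex effect). Without Cx30GRko Dex replicates 4 and 5, Egr2 stood at 0.01 (mean Dex effect). In replicates 4 and 5 the correlations were 0.04, 0.15 and 0.47 for Pmp22 with Pmp2, Egr2 and Cldn19, 0.20 and -0.01 for Pmp2 with Egr2 and Cldn19, and -0.24 for Egr2 with Cldn19. With group means taken off they were 0.42 for Pmp22 with Egr2 and 0.38 for Egr2 with Cldn19.

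Leaving out 1 array at a time gave 0 to 5 genes called for Dex in control mice, 0 to 6 for Dex in Cx30GRko mice, 0 to 1 for the interaction and the genotype difference under saline, 0 for that under Dex and 18 to 35 for the mean Dex effect. The sign then depended on single arrays for Pmp2 (-0.46 to 0.35 for Dex in Cx30GRko mice, -0.28 to 0.35 for genotype under Dex), Egr2 (-0.10 to 0.43 for genotype under Dex) and Cldn19 (-0.21 to 0.34 for genotype under Dex, -0.12 to 0.18 for the mean Dex effect).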
